A study of Homo sapiens with 8 samples.

Results

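C/D box small nucleolar RNAs (snoRNAs) outside the imprinted clusters were followed in 2 sorted populations of 4 human tumour cell lines. The members are the genes whose symbol is SNORD and a number, in the annotation of probe sets that name 1 gene, without the families encoded in the imprinted regions on chromosomes 14 and 15. This rule uses no measured value, and it gave 69 of the 18417 genes that the arrays measured, each with 1 probe set. Of these, 67 lay above the dimness limit described below. SNORD13P1 and SNORD56B lay under it, at 3.67 to 4.54 and 4.34 to 5.34 over the 8 arrays, and were not tested. The members include 3 genes that RefSeq lists as SNORD13 pseudogenes, among them SNORD13P1.

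C/D snoRNAs carry short conserved sequences called box C and box D and bind the methyltransferase fibrillarin with NOP56, NOP58 and SNU13. Most of them pair with ribosomal RNA and direct ribose methylation of a chosen base, a few guide the spliceosomal U6 RNA, and others such as U14 and U13 are needed to cut or modify the ribosomal RNA precursor. Most human C/D snoRNAs lie in introns of host genes and are trimmed from the excised intron, so that the host's exons and the snoRNA come from 1 primary transcript but have separate lifetimes.

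Total RNA of each sorted population was hybridised to 1 Affymetrix Human Gene 1.0 ST array, a whole-transcript array that reads each gene through a set of short probes, which makes 8 arrays. The populations were ABCB5-positive and ABCB5-negative cells, separated by fluorescence with an antibody to ABCB5, a membrane transporter of the ATP-binding cassette family. The lines are established ones: COLO741 and HCT116, labelled colon carcinoma, SW620, labelled as a lymph node metastasis of colon carcinoma, and HT29, labelled colon adenocarcinoma. The culture medium was RPMI with serum, penicillin and streptomycin for each line, and the labels name no drug. Every value below is a log2 expression value or a difference of such values, and n = 4 in each population is the 4 lines, with 1 array per line and population. The replicates are thus different lines, and each line gave 1 pair of arrays. The series' design text lists SW480 in place of SW620, and the name on the samples was kept.

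The array medians lay between 8.03 and 8.10. The dimness limit was the median of 360 olfactory receptor probe sets, 5.73, and their 95th percentile, 7.50, is called the background ceiling here. The ABCB5 transcript went against the labels in COLO741, at 8.14 in ABCB5-positive and 9.42 in ABCB5-negative cells, and lay between 5.24 and 5.69 in the 6 arrays of the other 3 lines, under that ceiling. COLO741 also went against its labelled tissue: all 7 measured melanocyte markers of 8 lay above the ceiling in both its arrays, against 1 to 3 in the other lines, while 6 of 12 colon epithelium markers did, against 8 to 12 in the other lines. In SW620, 7 of 10 phagocyte markers lay above the ceiling in ABCB5-positive cells and 3 in ABCB5-negative cells, and this list counted 2 to 4 in the 6 arrays of the other lines. The part of these differences in the snoRNA values was not tested. The main counts are given with COLO741 and also without it. In bulk RNA, fewer cells of a type and less RNA per cell cannot be told apart.

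The 67 C/D snoRNAs had mostly lower values in ABCB5-positive than in ABCB5-negative cells, by a small amount, and no single one passed the test. The mean difference over the 4 lines was below 0 for 63 of the 67, where 52% of all 16910 genes tested lay below 0. The median difference was −0.20, against −0.005 over all genes, and single members ranged from −0.53 for SNORD82 to 0.06 for SNORD96B. With limma and the cell line as a block, 0 of 67 had an adjusted p under 0.05, as had 0% of all genes, and the lowest adjusted p was 0.898. At an unadjusted p under 0.05, 27 members were lower and 0 were higher, where 1.78% of all genes were lower and 2.62% were higher. Without COLO741 the count was 19 of 67, with 58 members below 0 and a median of −0.15. Without HCT116 it was 17. Over all 16910 genes the count was 714 without COLO741 and 805 without HCT116.

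**Figure D1:**
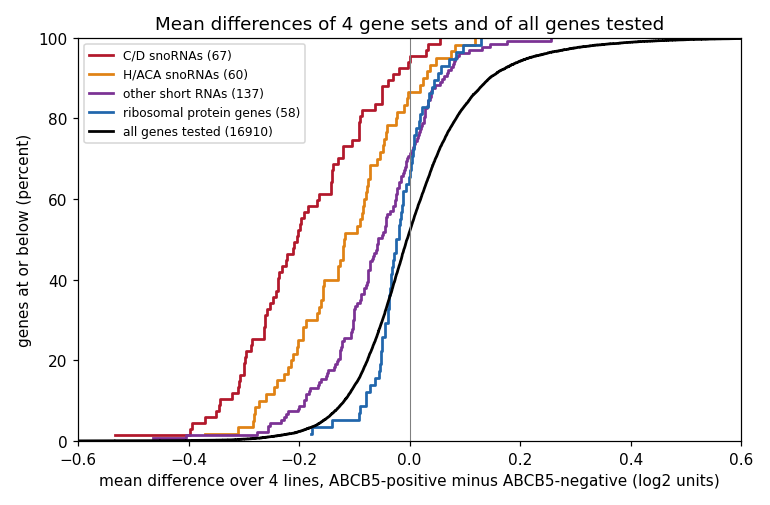
Cumulative percent of genes (vertical axis) at or below each mean difference over the 4 lines, ABCB5-positive minus ABCB5-negative in log2 units (horizontal axis), for the C/D snoRNAs, H/ACA snoRNAs, other short RNAs, ribosomal protein genes and all genes tested. The C/D snoRNA curve lies to the left of the others over most of its range, with 63 of 67 members below 0 and a median of −0.20, against a median of −0.005 for all genes.

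The size of the difference was unequal between the lines. The median difference of the members was −0.35 in COLO741 (58 of 67 members below 0), −0.05 in SW620 (38 below 0), −0.17 in HT29 (47 below 0) and −0.23 in HCT116 (64 below 0). Over all genes the medians were −0.02, 0.02, −0.005 and −0.01 in the same order of lines. The shares of all genes below 0 were 54.4%, 45.9%, 51.4% and 54.4%. SW620 had the members' median nearest to 0, with 56.7% of the members below 0. There were 26 members lower in all 4 lines, where 6.98% of all genes were, 24 were lower in exactly 3 lines, 14 in 2 and 3 in 1. The difference was lowest in COLO741 for 39 members, and the same count over all genes was not made. With 1 array per population in a line there is no test within a line, and a 1.5-fold lower value is given as a description. It was reached by 12 members in COLO741, where 1.61% of all genes reached it, and by 1 in SW620 (0.639%), 1 in HT29 (0.384%) and 2 in HCT116 (0.142%). No member was 1.5-fold higher in any line. Of all 16910 genes, 49 were higher by that much within HCT116, 209 within HT29, 302 within SW620 and 679 within COLO741. At such low counts, 0 of 67 does not set the members apart from all genes within HCT116, HT29 or SW620. The 12 in COLO741 were SNORD82, SNORD45B, SNORD15B, SNORD54, SNORD34, SNORD32B, SNORD51, SNORD104, SNORD35A, SNORD46, SNORD42A and SNORD32A. SNORD20 was the member in SW620 and in HT29, and SNORD38B and SNORD82 were those in HCT116.

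**Figure D2:**
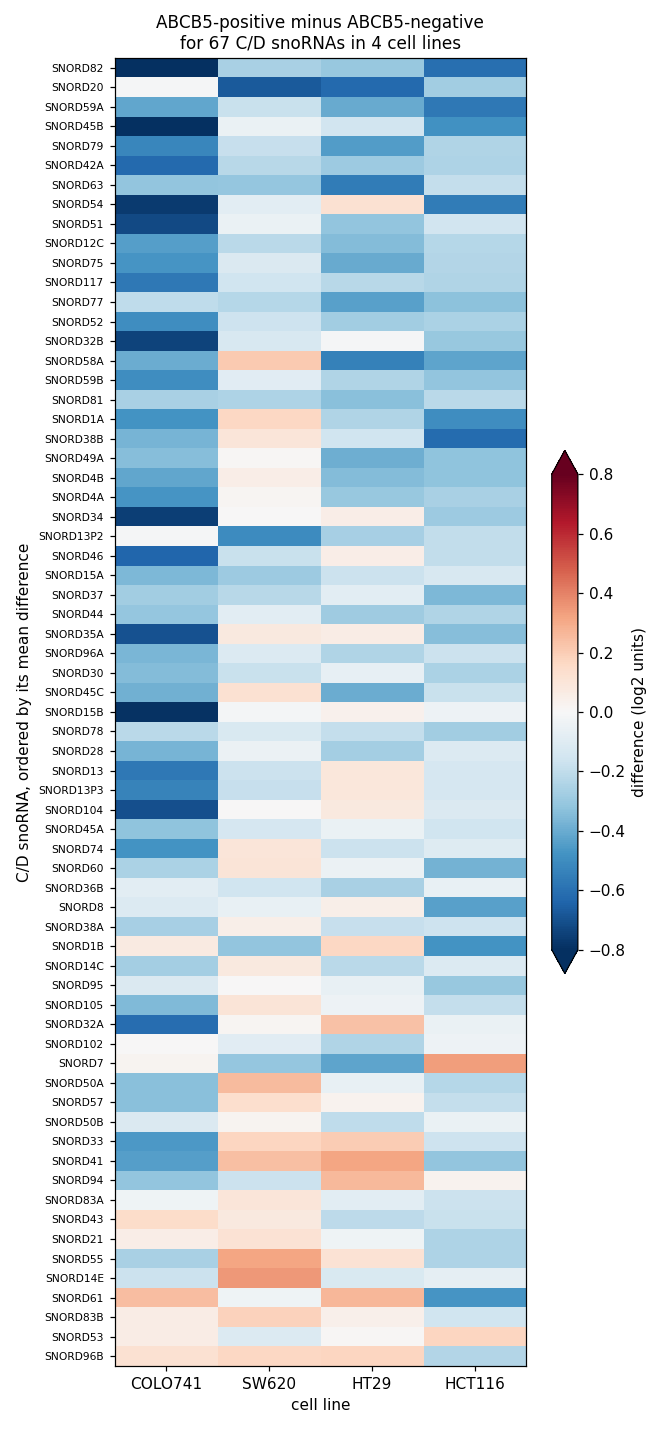
Heat map of the difference between ABCB5-positive and ABCB5-negative cells (log2 units, blue lower and red higher in ABCB5-positive cells) for each of 67 C/D snoRNAs (rows, ordered by mean difference) in each cell line (columns). Blue fills most of the COLO741 and HCT116 columns, where 58 and 64 members lay below 0, and is weakest in SW620, where 38 did.

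The 8 members of smallest p on the lower side are known to guide methylation of the small or the large ribosomal RNA, and all 8 were lower in each of the 4 lines. SNORD59A, which lies in the gene of the ATP synthase beta subunit ATP5F1B, had 7.14, 7.73, 7.29 and 7.60 in ABCB5-positive COLO741, SW620, HT29 and HCT116 cells, against 7.56, 7.90, 7.70 and 8.17 in the ABCB5-negative cells of those lines. Its difference was −0.39 ± 0.16 (SD, n = 4), or 1.31-fold lower, with a limma p of 0.00211 before adjustment and 0.898 after it. SNORD12C, of the noncoding host ZFAS1, had 9.36, 10.53, 11.24 and 10.87 in ABCB5-positive COLO741, SW620, HT29 and HCT116 cells, against 9.80, 10.75, 11.59 and 11.10 in the ABCB5-negative cells of those lines. Its spread between lines was wider than the gap between populations, so the groups overlapped although each pair ran 1 way, with a difference of −0.31 ± 0.11. SNORD82, of the nucleolin gene NCL, had 7.40, 8.45, 8.90 and 8.03 in ABCB5-positive COLO741, SW620, HT29 and HCT116 cells, against 8.36, 8.71, 9.20 and 8.63 in the ABCB5-negative cells of those lines. This was the lowest mean difference of all members, −0.53 ± 0.33, and it was −0.97 in COLO741 and −0.26 in SW620.

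SNORD63, of the mitochondrial chaperone gene HSPA9, had 5.42, 5.77, 5.67 and 5.84 in the ABCB5-positive arrays, against 5.74, 6.08, 6.23 and 6.03 in the ABCB5-negative arrays, in the order COLO741, SW620, HT29 and HCT116. All 8 values lay under the background ceiling, so this difference of −0.34 ± 0.15 was read near background. SNORD52, of the noncoding host SNHG32, had in the same order of lines 9.60, 9.79, 10.02 and 10.44 in the ABCB5-positive arrays, against 10.10, 9.96, 10.30 and 10.70 in the ABCB5-negative arrays. Its difference was −0.30 ± 0.14. The other 3 of the 8, SNORD77, SNORD79 and SNORD81, share the host GAS5 and are described with it. All 8 had an adjusted p of 0.898 in limma.

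**Figure D3:**
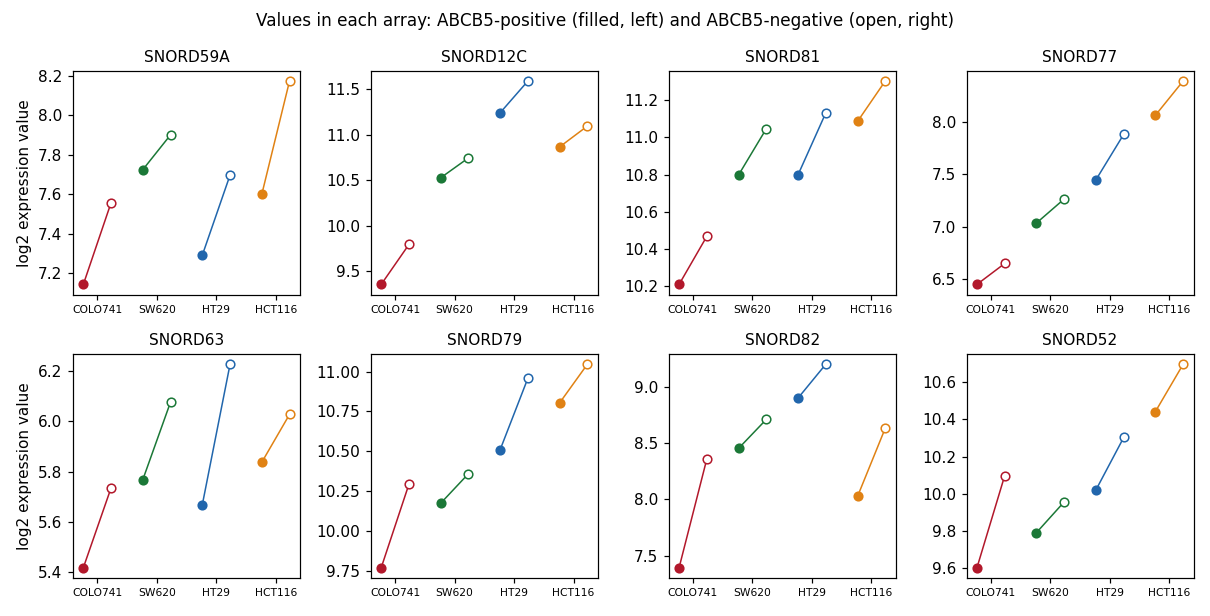
Log2 expression value (vertical axes, scaled per panel) in each of the 8 arrays for the 8 C/D snoRNAs of smallest p on the lower side, with the ABCB5-positive array as a filled point on the left and the ABCB5-negative array as an open point on the right of each cell line. In all 8 panels each of the 4 lines runs upward to the ABCB5-negative array.

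GAS5 is a noncoding gene whose introns hold a row of C/D snoRNAs, and it was the host with most members. Its 7 measured members guide methylation of ribosomal RNA, and all 7 were lower, with differences of −0.35 to −0.16 and a median of −0.26. In all 4 lines 6 of the 7 were lower, and the same number had an unadjusted p under 0.05. SNORD81 had 10.21, 10.80, 10.80 and 11.09 in ABCB5-positive COLO741, SW620, HT29 and HCT116 cells, against 10.47, 11.05, 11.13 and 11.30 in the ABCB5-negative cells of those lines. Its 4 differences lay close together, at −0.26 ± 0.05. SNORD77 had in the same order 6.45, 7.03, 7.45 and 8.07 in the ABCB5-positive arrays, against 6.65, 7.26, 7.88 and 8.40 in the ABCB5-negative arrays, with a difference of −0.30 ± 0.11. SNORD79 had 9.77, 10.18, 10.51 and 10.80 in the ABCB5-positive arrays, against 10.30, 10.36, 10.96 and 11.05 in the ABCB5-negative arrays, with a difference of −0.35 ± 0.16. The differences of the remaining 4 were −0.31 ± 0.16 for SNORD75, −0.23 ± 0.10 for SNORD44, −0.20 ± 0.06 for SNORD78 and −0.16 ± 0.24 for SNORD74. SNORD74 was the exception among the 7, higher in ABCB5-positive SW620 cells at 12.15 against 12.05 in ABCB5-negative ones. Its difference was −0.06 without COLO741 and −0.25 without SW620. Members of 1 host come from 1 transcript and are not independent of each other. GAS5 itself has no probe set of its own in the annotation.

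NCL encodes nucleolin, an abundant nucleolar protein, and its members SNORD82 and SNORD20 were lower in all 4 lines. SNORD20 had 5.57, 6.60, 6.75 and 7.04 in ABCB5-positive COLO741, SW620, HT29 and HCT116 cells, against 5.58, 7.28, 7.37 and 7.32 in the ABCB5-negative cells of those lines. All 8 values lay under the background ceiling. The pair was level in COLO741 and apart in the other lines, with a difference of −0.40 ± 0.31. Without COLO741 its difference was −0.53.

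RPL23A, a protein of the large ribosomal subunit, hosts SNORD4A, SNORD4B and SNORD42A. All 3 were lower, at −0.25 ± 0.20, −0.26 ± 0.21 and −0.34 ± 0.19, and all 3 had an unadjusted p under 0.05. SNORD42A had 8.74, 9.40, 10.02 and 9.85 in ABCB5-positive COLO741, SW620, HT29 and HCT116 cells, against 9.37, 9.62, 10.31 and 10.10 in the ABCB5-negative cells of those lines, lower in each line and with the lowest difference in COLO741. RABGGTB, which encodes a subunit of the enzyme that attaches lipid to Rab proteins, hosts SNORD45A, SNORD45B and SNORD45C. Their differences were −0.17 ± 0.12, −0.37 ± 0.34 and −0.21 ± 0.24, and SNORD45A and SNORD45B were lower in all 4 lines. Without SW620, SNORD45C was at −0.32. SNORD45B had 9.54, 10.34, 10.25 and 8.44 in ABCB5-positive COLO741, SW620, HT29 and HCT116 cells, against 10.34, 10.39, 10.40 and 8.92 in the ABCB5-negative cells of those lines. Without COLO741 its difference was −0.23. The ATP5F1B pair SNORD59A and SNORD59B was lower in all 4 lines, as were SNORD28 and SNORD30 of SNHG1, at −0.20 ± 0.15 and −0.21 ± 0.12.

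The members of RPL13A and RPL3, both ribosomal protein genes, held lower and higher lines. The 4 members of RPL13A were lower on average, with a median of −0.16, but 0 of them in all 4 lines. In COLO741 their differences ran from −0.75 to −0.46, in SW620 from 0.0009 to 0.17, in HT29 from 0.05 to 0.23 and in HCT116 from −0.34 to −0.06. SNORD34 had 10.01, 10.28, 11.41 and 11.20 in ABCB5-positive COLO741, SW620, HT29 and HCT116 cells, against 10.76, 10.28, 11.36 and 11.50 in the ABCB5-negative cells of those lines. Without COLO741 its difference was −0.08, and those of SNORD32A and SNORD33 were 0.06 and 0.07, on the other side of 0 from their values with it, −0.10 and −0.06. The 3 members of RPL3 lay near 0, at −0.04 ± 0.18 for SNORD43, −0.05 ± 0.11 for SNORD83A and 0.03 ± 0.14 for SNORD83B.

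SnoRNAs needed for cutting or modifying the ribosomal RNA precursor were measured in SNORD13 and in SNORD14C and SNORD14E. SNORD13, the U13 RNA, which is transcribed from its own promoter and works with the acetyltransferase NAT10, had 12.91, 13.64, 13.81 and 14.02 in ABCB5-positive COLO741, SW620, HT29 and HCT116 cells, against 13.48, 13.81, 13.72 and 14.15 in the ABCB5-negative cells of those lines. It was lower in 3 lines and higher in HT29, at −0.20 ± 0.28, and without COLO741 the difference was −0.07. SNORD13P3, listed as a pseudogene of it, had −0.19 ± 0.26, or −0.08 without COLO741, and whether both probe sets read the same RNA was not tested. SNORD14C and SNORD14E, copies of U14 in introns of the chaperone gene HSPA8, had differences of −0.13 ± 0.15 and −0.004 ± 0.24. Without COLO741 that of SNORD14C was −0.08, and without SW620 it was −0.20. Probes of such copies may read each other's RNA, which was not tested. The U3 genes, named SNORD3, are named here only by probe sets of several genes and are not members.

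Guides of the U6 spliceosomal RNA were SNORD7, SNORD8 and SNORD94. SNORD7 had 6.40, 6.60, 7.39 and 6.56 in ABCB5-positive COLO741, SW620, HT29 and HCT116 cells, against 6.37, 6.91, 7.80 and 6.23 in the ABCB5-negative cells of those lines, lower in SW620 and HT29 and higher in COLO741 and HCT116. The differences of the 3 were −0.09 ± 0.34, −0.14 ± 0.21 and −0.05 ± 0.25, with SDs larger than the means. That of SNORD8 was −0.04 without HCT116. Among the 8 members with the highest mean value, all with a mean difference below 0, SNORD57 of the C/D core protein gene NOP56 had 13.35, 13.83, 13.42 and 13.25 in ABCB5-positive COLO741, SW620, HT29 and HCT116 cells, against 13.68, 13.69, 13.39 and 13.45 in the ABCB5-negative cells of those lines. It was lower in 2 lines, at −0.09 ± 0.21, with −0.01 without COLO741 and −0.16 without SW620. SNORD41, of the importin gene TNPO2, had 13.34, 13.22, 12.80 and 12.63 in ABCB5-positive COLO741, SW620, HT29 and HCT116 cells, against 13.78, 12.98, 12.48 and 12.95 in the ABCB5-negative cells of those lines. It was lower in COLO741 and HCT116 and higher in SW620 and HT29, with a difference of −0.05 ± 0.38. SNORD45A, another of these, had differences of 1 sign in the 4 lines, −0.17 ± 0.12.

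Only 4 members had a mean difference at or above 0, and all were within their spread: SNORD96B at 0.06 ± 0.20, SNORD53 at 0.03 ± 0.12, SNORD83B at 0.03 ± 0.14 and SNORD61 at 0.00 ± 0.34. SNORD96B lay at 6.65 to 7.22 in ABCB5-positive cells and at 6.53 to 7.19 in ABCB5-negative cells. It was higher in 3 lines and lower in HCT116, and all 8 values lay under the background ceiling. In 14 of the 67 members at least 1 line had both arrays under that ceiling.

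Other classes of genes were counted the same way, without a test between classes. The H/ACA snoRNAs, which guide the change of uridine to pseudouridine, were measured in 60 genes. Of these 52 lay below 0, with a median of −0.12, and 12 were lower in all 4 lines. Other short RNAs (98 of 137 below 0) had a median of −0.06 and ribosomal protein genes (38 of 58) one of −0.02. Of the 46 imprinted C/D snoRNAs, 4 passed the dimness limit, and their median was 0.12, with all 4 higher in SW620 and lower in COLO741 and HT29. These 4 lay above the other 3 lines in COLO741 by a median of 5.72. Their mean thus rests largely on that line, and their differences in the other lines may be read near background.

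Genes of C/D particle biology lay nearer to 0. Of the core proteins, FBL (fibrillarin, the methyltransferase) and NOP58 (a scaffold protein) were tested of 4 listed. FBL differed by −0.04 ± 0.06 and NOP58 by −0.12 ± 0.12 (SD, n = 4). Of 8 assembly factors, 2 lay above 0 and 6 below, with a median of −0.06. Of 11 factors of processing and traffic, 4 lay above 0 and 7 below, with a median of −0.07. Of 14 RNA polymerase I factors, which transcribe or help transcribe the ribosomal RNA precursor, 2 lay above 0 and 12 below, with a median of −0.07, and TAF1D, which encodes a subunit of its initiation factor, had the lowest value at −0.16 ± 0.13. In these 4 lists 0 genes passed the limma test, as did 0% of all genes, and their lowest adjusted p was 0.898. At an unadjusted p under 0.05 the lists counted 0, where 1.78% of all genes were lower and 2.62% higher.

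The members were compared with their host genes. A host was taken as the shortest protein-coding or noncoding RNA gene of RefSeq that spans the snoRNA. RefSeq's table here gives no strand, so whether host and snoRNA run the same way was not checked. A host was found for 67 of the 69 members, over 41 genes, and SNORD13 and SNORD32B had none. Only 25 hosts have a probe set that names them alone, which left 33 tested members over 23 hosts. These probe sets were taken by name. For RPL23A, RPL5 and RPL7A the probe set number is far from those of their snoRNAs, while the other tested hosts have close numbers. These probe sets may thus read a copy of the host elsewhere, and their pairs are kept among the 33. Which gene each probe set reads was not checked further. The snoRNA had the lower difference in 28 of the 33 pairs. No such count was made against genes other than the host. Members mostly below 0, set beside any genes near 0, would give a high count too. The median difference was −0.24 for the snoRNAs and −0.04 for the 23 hosts, of which 19 lay below 0, and the median of snoRNA minus host was −0.21. For single lines that median was −0.26 (COLO741), −0.05 (SW620), −0.12 (HT29) and −0.20 (HCT116). Without COLO741 the snoRNA was the lower in 27 pairs, and over the leave-outs of the 4 lines in 24 to 30.

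NCL had 13.07, 13.73, 13.60 and 13.81 in ABCB5-positive COLO741, SW620, HT29 and HCT116 cells, against 13.18, 13.75, 13.65 and 13.81 in the ABCB5-negative cells of those lines. Its difference was −0.04 ± 0.04, beside those of its snoRNAs SNORD82 and SNORD20 given above. ATP5F1B had in the same order 14.36, 14.38, 14.17 and 14.33 in the ABCB5-positive arrays, against 14.39, 14.41, 14.29 and 14.37 in the ABCB5-negative arrays. Its difference was −0.06 ± 0.05, within a narrow spread. RABGGTB differed by −0.07 ± 0.04 and ZFAS1 by −0.14 ± 0.24, and RPL17, the host of SNORD58A, by −0.18 ± 0.29. Of the 23 hosts, 0 had an unadjusted p under 0.05 in limma, where 1.78% of all genes were lower and 2.62% higher. At these shares, 0 of 23 does not set the hosts apart from all genes. Exon probes of a host and probes within a short RNA differ in number and length, so only the differences between populations are set side by side. Some hosts lay near the highest value of the arrays, 15.24, such as HSPA8 with a mean of 14.91 and ATP5F1B with 14.34. Whether values that high still follow the amount of RNA was not tested. Across the 33 pairs the differences of snoRNA and host had a Spearman rho of 0.19, and pairs of 1 host share its value.

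**Figure D4:**
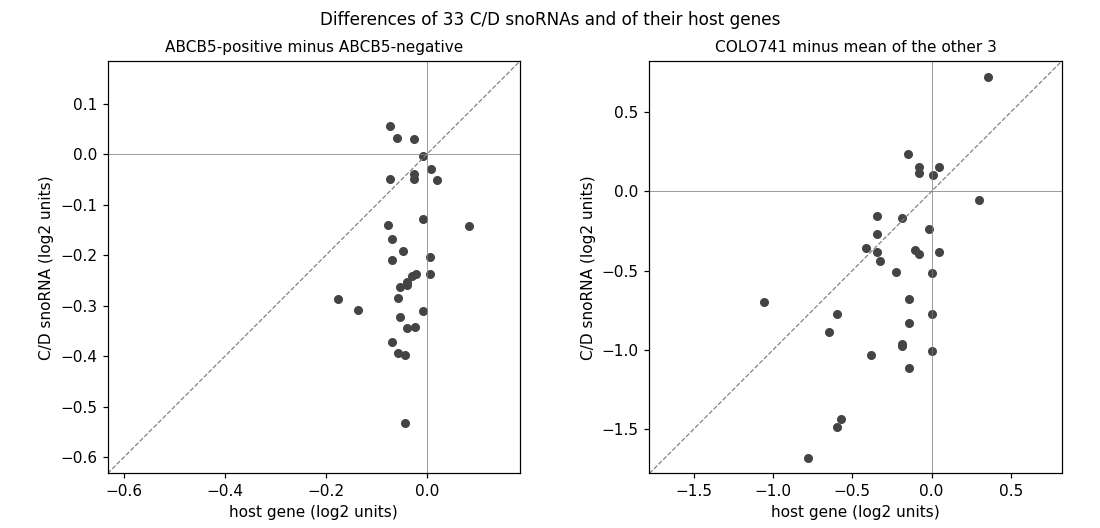
Difference of each C/D snoRNA (vertical axis, log2 units) against that of its host gene (horizontal axis, log2 units) for 33 pairs over 23 hosts, for ABCB5-positive minus ABCB5-negative cells (left) and for COLO741 minus the mean of the other 3 lines (right). The dashed line marks equal differences. In the left panel 28 of 33 points lie below it and the hosts cluster near 0, and in the right panel the snoRNA values spread further down than those of the hosts.

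Many snoRNA hosts are transcribed from starts with a run of pyrimidines beginning at a C, called a terminal oligopyrimidine start, which in ribosomal protein genes ties translation to growth signals. Such starts were searched with the letters CTTTT on the strand of the gene, beginning within 1 base of the RefSeq start. The search was repeated with CTTTC in the same place, and finally with CCTTT there, and a start with overlapping matches counted once. Of the 34 hosts in the RefSeq promoter table, 9 held a match, or 26.5%, against 1.94% of all 27305 promoters of the table. The hosts with it were RABGGTB, RPL13A, RPL21, RPL7A, RPS3, SNHG19, SNHG32, SNHG5 and ZFAS1. The 60 bases around the start (30 before it and 30 from it, RefSeq, build GRCh38.p14) are shown for 5 of these whose snoRNAs are described here and for GAS5 and NCL, which have no match within 1 base of the start. Capitals mark the match.
ZFAS1, chr20:49278612-49278671, plus strand: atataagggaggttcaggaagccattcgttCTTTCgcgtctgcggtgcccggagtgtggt
SNHG32, chr6:31834886-31834945, plus strand: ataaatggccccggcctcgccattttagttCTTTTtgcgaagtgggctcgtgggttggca
RABGGTB, chr1:75786226-75786285, plus strand: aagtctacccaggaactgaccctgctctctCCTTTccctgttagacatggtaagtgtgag
RPL13A, chr19:49487578-49487637, plus strand: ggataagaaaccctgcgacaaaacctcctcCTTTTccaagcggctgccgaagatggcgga
SNHG5, chr6:85678704-85678763, minus strand: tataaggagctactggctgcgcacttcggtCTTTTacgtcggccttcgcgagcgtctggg
GAS5, chr1:173869016-173869075, minus strand: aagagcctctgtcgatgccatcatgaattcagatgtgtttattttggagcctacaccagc
NCL, chr2:231464455-231464514, minus strand: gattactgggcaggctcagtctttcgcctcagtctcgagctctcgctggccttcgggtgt
The differences between the sorted populations were then read by group of hosts. The 16 members of hosts with a match had a median of −0.19 and 16 lay below 0, and the 37 members of hosts without it had a median of −0.20 and 33 lay below 0. A match is a description of the annotated start, and starts used in these lines were not measured. Other pyrimidine runs were not searched, so a host without a match may still have a terminal oligopyrimidine start. The 2 groups are therefore not hosts with and without such a start.

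The members differed between the cell lines. The F test over the 4 lines, with the population as a covariate, passed an adjusted p of 0.05 in limma for 55 of the 67 members, where 67.2% of all genes passed. The members' line means ranged over 0.16 to 2.57, with a median range of 0.99, against 0.64 for all genes. COLO741 had the lowest line mean for 51 of the 67, where it had the lowest for 30.3% of all genes. The highest mean lay in HCT116 for 31 members (28.3% of all genes) and in HT29 for 27 (25.1%). Without COLO741, 42 of 67 passed the F test over the other 3 lines. The 67.2% of all genes belongs to the test over 4 lines and is no measure for that count. The share of all genes over the other 3 lines is not given here, so 42 of 67 is not read as a result about the members. Each line stands for 1 pair of arrays, so the test speaks for these arrays and not for other cultures of the lines.

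Against the mean of the other 3 lines, with an adjusted p under 0.05 and at least 1.5-fold, 35 members fell in COLO741 and 1 rose, where 12.9% of all genes fell and 14.1% rose. The median over the members was −0.62, against −0.04 over all genes. By the same rule 16 of 60 H/ACA snoRNAs fell in COLO741 and 4 rose, and 9 of 58 ribosomal protein genes fell and 0 rose. Their medians there were −0.20 and −0.27, so lower values in COLO741 were not particular to the C/D snoRNAs. In SW620, 4 fell and 6 rose (10.5% and 11.3% of all genes). In HT29, 0 fell and 15 rose (12.6% and 9.98%). In HCT116, 2 fell and 15 rose (10.7% and 9.54%). Each of these contrasts shares its arrays with the other 3, so the lines' values are given side by side. COLO741 is the line whose melanocyte markers were all above background, and the part of those cells' identity in its snoRNA levels was not tested.

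**Figure D5:**
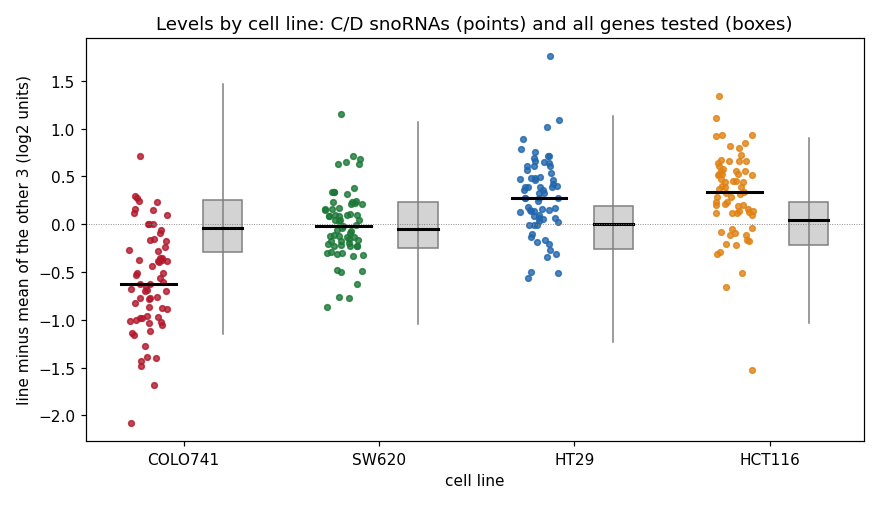
Log2 difference of each cell line from the mean of the other 3 (vertical axis) for the 67 C/D snoRNAs (points, with the median as a black bar) and for all 16910 genes tested (boxes from the 25th to the 75th percentile, whiskers from the 5th to the 95th, black bar at the median). The COLO741 points centre at −0.62, those of HT29 and HCT116 lie mostly above 0, and the boxes of all genes centre near 0 in each line.

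SNORD50B had the widest range of line means. SNORD50A and SNORD50B lie in introns of the noncoding host SNHG5 and guide methylation of the large ribosomal RNA. SNORD50B had 7.32, 9.43, 8.89 and 9.92 in ABCB5-positive COLO741, SW620, HT29 and HCT116 cells, against 7.43, 9.40, 9.09 and 9.97 in the ABCB5-negative cells of those lines. It fell by 2.08 in COLO741 against the other 3 lines (adjusted p 3.35e-06 in limma), and the COLO741 arrays did not overlap the others. Both COLO741 arrays lay under the background ceiling, so the size of this fall and the range are read against a value not above background. SNORD50A, with line means of 9.39, 10.91, 10.32 and 11.13 in COLO741, SW620, HT29 and HCT116, fell by 1.39 in COLO741 and rose by 0.93 in HCT116. Both also rose in SW620, by 0.63 for SNORD50A and 0.65 for SNORD50B, and SNORD50B rose by 1.35 in HCT116.

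SNORD51, of the elongation factor gene EEF1B2, had line means of 6.88, 8.38, 8.65 and 8.63 in the same order and fell by 1.68 in COLO741 (limma adjusted p 9.7e-05), where both arrays lay under the background ceiling. SNORD20 had means of 5.57, 6.94, 7.06 and 7.18 and fell by 1.49 in COLO741, where both arrays were under the ceiling too. SNORD12C had means of 9.58, 10.64, 11.42 and 10.98. It fell by 1.43 in COLO741 and rose by 1.02 in HT29. The SNHG1 members SNORD28 and SNORD30 fell by 1.16 and 1.28 in COLO741, and SNORD30 had means of 10.76, 11.79, 12.06 and 12.26. The 7 GAS5 members differed by −1.14 to −0.57 in COLO741, and all but SNORD74 fell by the test. SNORD77, with means of 6.55, 7.15, 7.67 and 8.23, rose by 1.11 in HCT116, and its arrays of COLO741 and SW620 were under the ceiling.

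Other members stood out in other lines. SNORD102, of the ribosomal protein gene RPL21, was high in HT29. It had 6.75, 6.77, 8.60 and 7.29 in ABCB5-positive COLO741, SW620, HT29 and HCT116 cells, against 6.75, 6.86, 8.84 and 7.33 in the ABCB5-negative cells of those lines, and HT29 lay 1.76 above the other 3 (limma adjusted p 1.15e-05). In the other 3 lines it was under the background ceiling. SNORD61, of the RNA-binding protein gene RBMX, had means of 6.52, 8.44, 7.66 and 7.66 and rose by 1.16 in SW620, while it fell by 1.40 in COLO741, where both arrays lay under the background ceiling. SNORD45B was low in HCT116, with means of 9.94, 10.37, 10.32 and 8.68, and fell by 1.53 there. Its neighbours in the same host did not follow it: SNORD45C, with means of 9.48, 9.61, 9.55 and 10.48, rose by 0.93 in HCT116, and SNORD45A, with means of 12.88, 12.82, 12.72 and 12.76, had an F test adjusted p of 0.46 over the lines. The host RABGGTB had means of 11.84, 11.96, 11.75 and 12.05. SNORD41 was the 1 member that rose in COLO741, by 0.72, with means of 13.56, 13.10, 12.64 and 12.79.

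The hosts were set beside their snoRNAs in the same way between lines. In COLO741 against the other 3, the median was −0.44 for the 33 snoRNAs and −0.19 for their 23 hosts. Below 0 were 27 of 33 snoRNAs and 17 of 23 hosts, where 9276 of all 16910 genes were. Of the ribosomal protein genes 57 of 58 lay below 0, and of the H/ACA snoRNAs 43 of 60. The Spearman rho across the 33 pairs was 0.52. HSPA8, which lay near the highest value of the arrays, differed by 0.00 while its SNORD14C and SNORD14E fell by 0.78 and 1.01. EEF1B2 lay at −0.78 beside SNORD51, and NCL at −0.60 beside SNORD20 and SNORD82. TNPO2 lay at 0.36 beside SNORD41, the pair in which both were above 0 by the most. KIF9, listed as host of the SNORD13P3 pseudogene, lay at −1.06, with both COLO741 arrays under the background ceiling. Of the particle's own genes, the core proteins FBL and NOP58 lay at −0.34 and −0.53 in COLO741, and the nucleolar chaperone NOLC1 at −0.95. In that contrast 1 of 11 processing and traffic factors, 3 of 14 RNA polymerase I factors and 0 of the core and assembly lists passed as lower, where 12.9% of all genes did.

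Level and length were set beside the difference between the populations as a description. Across the 67 members the difference had a Spearman rho of 0.09 with the mean level and of 0.28 with the length of the RNA in RefSeq, which ran from 60 to 205 bases with a median of 75.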

How the data were processed

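RNA of 8 sorted populations was read on Human Gene 1.0 ST arrays after amplification with the Ambion WT kit, per the labels' protocols. The deposited values are on a log2 scale, 1 per probe set and array, from Affymetrix Expression Console, per the submitters' processing notes. No version, background correction, summarisation or normalization is given in the sources used. The log2 scale was read from the range, 2.99 to 15.24, and no further normalization was applied. The number of arrays limits the precision.

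Names come from the platform annotation, updated by gene identifier to RefSeq (GRCh38.p14). Of 33297 probe sets, 19460 named 1 gene, 1754 several and 12083 were not listed. The probe set of highest mean stood for a gene, and 1507 genes under the olfactory receptor median were left out.

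The 2 populations were tested by limma 3.58.1 (R 4.3.3), with cell line as a block, two-sided tests and Benjamini-Hochberg adjustment over 16910 genes. The pairing comes from the labels, which name the line of each array, and the deviations of a line's arrays from their population means correlated across genes at 0.932 to 0.964. Residual degrees of freedom were 3, to which moderation added 3.44. Lines were compared by an F test and against the mean of the other 3, with population as covariate. A host is the shortest gene spanning the snoRNA; strand was not matched, since the table used holds none.

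Members named are up to 8 of smallest p per direction, the 10 of widest range of line means, the 8 of highest mean, the cleavage snoRNAs, the U6 guides and the members of hosts with at least 3 measured. Other names came from counts of 1.5-fold members, called members or host pairs, and were chosen after their values were seen. Members and lists were chosen with earlier results of these data known. The fit was tested on simulated data. Alternatives were the dimness filter, the probe set per gene, the normalization, the block and the covariate. Others left out members sharing a SNORD number with another gene, dimmer hosts, lines or arrays. The group of members of 1 further host gene is not reported here.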

Additional observations from a re-analysis of the deposited data

Results flagged for a closer look

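The differences of the 48 named members were checked for 1 line far from the other 3, with chance flagging about 1 in 20. SNORD42A, of RPL23A, had a difference of −0.62 in COLO741, far from −0.22 in SW620, −0.29 in HT29 and −0.25 in HCT116. SNORD96B had a difference of −0.24 in HCT116, far from 0.12 in COLO741, 0.17 in SW620 and 0.17 in HT29. The cause of either was not tested.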

How the results depend on the processing

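The count of members with an unadjusted p under 0.05, 27 of 67 with the cell line as a block, was 17 to 31 when a cell line was left out, lowest without HCT116. Over all 16910 genes it was 526 to 805 in those leave-outs, lowest without HT29. Without the replicate block the count of members was 2, where all genes gave 27 against 744 with the block. With the line as a random block it was 22, where all genes gave 775. Without members whose SNORD number RefSeq gives to more than 1 gene symbol it was 12 of 29. The count of members below 0 was then 28 of 29, against 63 of 67, with fewer members counted. That setting goes by names, and likeness of sequence was not checked. The count past the adjusted threshold was 0 under each of these settings. The median difference stayed between −0.24 and −0.15 under the settings run for it. The count for SW620 against the other 3, 10, was 6 to 10 when an array was left out, lowest without its ABCB5-positive array. The cause of these changes was not tested. Some members with differences near 0 changed sign when a cell line was left out, with ranges of −0.12 to 0.052 for SNORD14E, −0.22 to 0.064 for SNORD32A, −0.15 to 0.069 for SNORD33, −0.17 to 0.080 for SNORD41, −0.10 to 0.016 for SNORD43, −0.014 to 0.080 for SNORD53, −0.13 to 0.062 for SNORD55, −0.087 to 0.16 for SNORD61, −0.23 to 0.017 for SNORD7, −0.021 to 0.094 for SNORD83B and −0.15 to 0.039 for SNORD94. SNORD14E was also 0.012 with arrays centred on their medians. Beyond these, the counts over the members stayed within 1.5 times of the value reported, and 501 comparisons of a single member or count with another setting kept direction. Signal limits 14 of the 67 members, which had at least 1 line with both arrays under the background ceiling.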

Other observations

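A further 29 probe sets name a C/D snoRNA together with other genes and were not used for the members. They hold 30 snoRNAs named nowhere else, among them the U3 genes SNORD3A and SNORD3D, which are needed to cut the ribosomal RNA precursor, and SNORD47, SNORD76 and SNORD80. All 29 had a mean difference below 0 between ABCB5-positive and ABCB5-negative cells, with a median of −0.12, and 8 were lower in all 4 lines. For single lines the median was −0.34 (COLO741), −0.05 (SW620), −0.19 (HT29) and −0.18 (HCT116). The other genes on these probe sets include hosts of the snoRNAs, and which RNA gives the signal was not tested.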
